A study of Rattus norvegicus with 10 samples.

Results

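Dlx1, Dlx2, Dlx5 and Dlx6 encode homeodomain transcription factors of the distal-less family, and Lhx6 encodes a LIM-homeodomain factor of cortical interneurons. The members were taken by name from the table of each rat, and 4 of the 5 names (Dlx1, Dlx2, Dlx5 and Lhx6) had a row among 22081 genes. No row carries the name Dlx6, and it was not analysed here. The names were proposed with read differences between high cue (HC) and low cue (LC) rats already known, so HC against LC is given below as a description of each member, without a test.

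RNA was sequenced from the medial prefrontal cortex (mPFC) of 5 HC rats (HC 9, 10, 11, 15 and 16) and 5 LC rats (LC 2, 4, 12, 13 and 14), 1 library per rat. All were male Sprague-Dawley rats, 11 weeks old when operant training began. All pressed a lever for cocaine at 0.75 mg/kg per infusion, went through 10 days of abstinence and had tissue taken on day 27, so that neither group stands for a cocaine-naive brain. HC and LC rats lay above and below the median of presses for cocaine-paired cues in session 12, the HC rats had also taken more cocaine, and the phenotype therefore cannot be told apart from intake. The name of each deposited table carries a further tag, Cue (HC 9, 10 and 11 and LC 12, 13 and 14) or NoCue (HC 15 and 16 and LC 2 and 4). The study retested 3 rats of each phenotype with cues before tissue was taken, and the sample labels do not say which rats these were. Since the NoCue LC rats are LC 2 and LC 4, the tag and those libraries cannot be told apart among LC rats.

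The Dlx genes lie as linked pairs that face each other in the genome, with enhancers between them. In the embryonic mouse they are switched on in progenitors of the ventral forebrain, where Dlx1 and Dlx2 act first and Dlx5 and Dlx6 follow, and their products, which bind TAAT-containing DNA, are needed for GABAergic neurons to form and migrate into the cortex. Lhx6 is induced by Nkx2-1 in the medial ganglionic eminence and is needed for the positioning and maturation of interneurons that make parvalbumin or somatostatin. Part of this expression persists in mature cortical interneurons. In bulk tissue, fewer cells of a type and less RNA per cell cannot be told apart.

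On Rnor_6.0, Dlx1 (ENSRNOG00000001520) has 3 exons on the plus strand of chromosome 3, from 58164931 to 58169521. Dlx2 (ENSRNOG00000001519) has 3 exons on the minus strand of that chromosome, from 58180088 to 58181971, with 10566 bases between the 2 genes. Lhx6 (ENSRNOG00000005996) has 10 exons on the minus strand, also of chromosome 3, from 15411939 to 15433252. Dlx5 (ENSRNOG00000010905) has 3 exons on the minus strand of chromosome 4, from 32387741 to 32392007. The tables place an unnamed gene, AABR07059679.1 (ENSRNOG00000010822, plus strand, 32373641 to 32377253), 10487 bases from Dlx5, and in the RefSeq annotation of GRCr8 the protein-coding neighbour on one side of Dlx5 is Dlx6. No identifier ties the unnamed row to Dlx6, so its values are given under its own name.

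The bases before the start of Dlx1 and of Lhx6 are shown because, in the scaled counts given further on, LC 2 was the highest rat for Dlx1 and the lowest for Lhx6. Each run holds 250 bases upstream of the start, 5′ to 3′ on the strand of the gene, from RefSeq on GRCr8, with GGGCGG or its reverse complement in capitals.
Dlx1, chr3:76763614-76763863, plus strand: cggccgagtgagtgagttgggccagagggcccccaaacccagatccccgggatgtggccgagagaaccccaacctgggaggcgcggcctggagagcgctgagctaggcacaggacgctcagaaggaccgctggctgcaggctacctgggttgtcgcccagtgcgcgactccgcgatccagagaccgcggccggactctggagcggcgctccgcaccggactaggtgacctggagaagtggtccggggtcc
Lhx6, chr3:39853424-39853673, minus strand: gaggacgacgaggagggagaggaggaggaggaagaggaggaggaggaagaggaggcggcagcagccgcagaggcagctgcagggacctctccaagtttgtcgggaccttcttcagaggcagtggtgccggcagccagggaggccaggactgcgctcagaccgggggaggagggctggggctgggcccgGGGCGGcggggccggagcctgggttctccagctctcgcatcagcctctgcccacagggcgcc
GC made up 69.2% of the Dlx1 run and 70.4% of the Lhx6 run, against a median of 51.2% over 33469 promoters. The letters TAATTA, searched on both strands, were in neither run and in 4.86% of all promoters. The shorter TAAT, which TAATTA contains, was likewise in neither run and in 56.97% of all promoters, and GGGCGG was in the Lhx6 run and in 30.47% of all. These are matches of letters in a short window and say nothing of binding.

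Exon reads totalled 11296517 to 26664008 per HC rat and 12151550 to 23342946 per LC rat. The library of LC 2 stood apart. Mitochondrially encoded genes held 28.41% of its exon reads (7.65% to 11.96% in the other rats), and 8.93% of its exon reads crossed a splice junction (11.27% to 12.03% in the other rats). LC 4 stood apart in genes of striatal projection neurons, a cell type that the cortex should lack. The summed level of 16 such markers, in TPM (exon reads per base of exon, scaled to a fixed total per library) recomputed without mitochondrial genes, was 394 to 446 in HC rats, against 1061 in LC 4, 515 in LC 2 and 418 to 456 in the remaining LC rats. LC 2 in turn had a summed level of 1611 for 9 markers of neuroblasts and dividing progenitors, against 970 to 1042 in HC rats and 990 to 1038 in the other LC rats. No marker of either list was at 0 in all rats. The striatal markers Isl1 and Drd3 were at 0 in every HC rat and at 1.15 and 1.29 CPM (exon reads relative to the scaled library total) in LC 4. The sum of neuroblast and progenitor markers is weighted to abundant genes such as Stmn1 (1011 CPM in LC 2, 550 to 594 CPM in HC rats). Its members did not all go the same way. Top2a was at 6.93 CPM in LC 2 and 4.95 CPM in LC 4, against at most 1.73 CPM in HC rats. Egfr was at 7.42 CPM in LC 2 and 11.9 CPM in LC 4, against 10.2 to 12.0 CPM in HC rats. Markers of cortical excitatory neurons, the labelled tissue, summed to 4456 to 5110 TPM in HC rats and 3621 to 5114 TPM in LC rats, with LC 2 the lowest. The comparisons of HC with LC rats are therefore also given without LC 2 and LC 4, and the part of these libraries' other features in them was not tested.

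**Figure D1:**
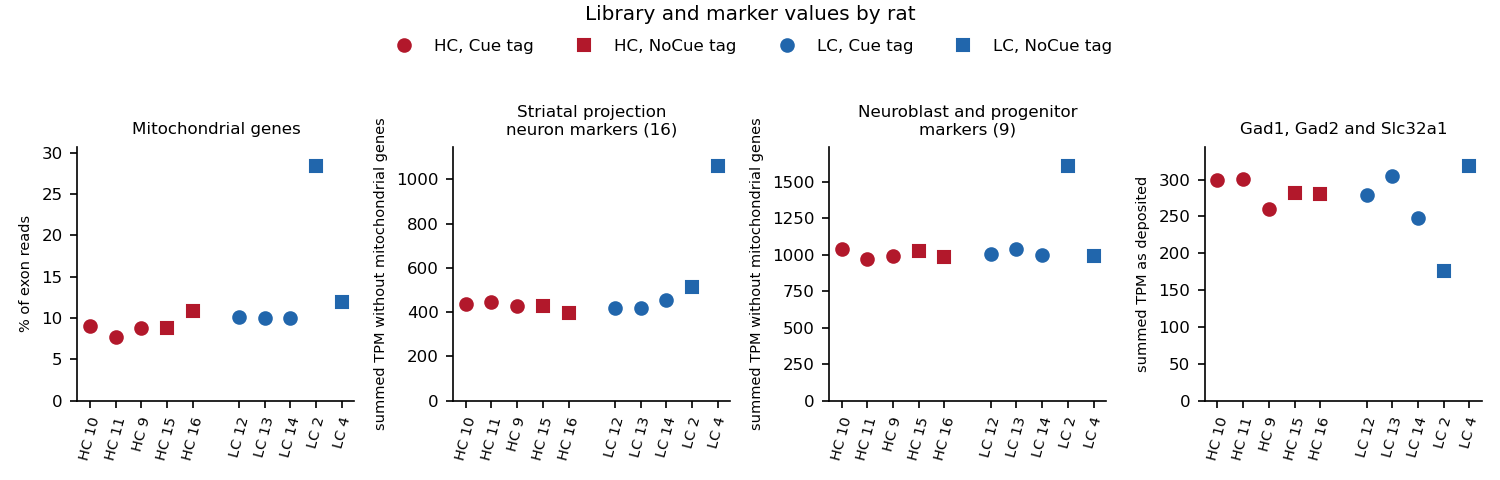
Values of each library on the y axes (HC rats on the left in red, LC rats on the right in blue, circles for the Cue tag and squares for NoCue). From left to right, the percent of exon reads from mitochondrial genes, the summed TPM without mitochondrial genes of 16 striatal and of 9 neuroblast and progenitor markers, and the summed deposited TPM of Gad1, Gad2 and Slc32a1. LC 2 is apart in the panels of mitochondrial, progenitor and GABA genes, and LC 4 in the panel of striatal markers. The GABA panel is in deposited TPM, which the mitochondrial genes of LC 2 (52.0% of its TPM) lower, so it is not a separate feature of that library.

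Dlx2 showed the clearest separation of the phenotypes. It was low in all HC rats, and the LC rats split into a pair near the HC level and 3 well above it. The exon reads of Dlx2 were 69, 42, 85, 99 and 49 in HC 9, 10, 11, 15 and 16, against 88, 126, 53, 106 and 171 in LC 2, 4, 12, 13 and 14. Scaled to CPM by TMM, which corrects library totals for genes that dominate a library, these were 3.8, 3.46, 4.03, 3.6 and 4.27 CPM in HC rats, against 8.47, 8.54, 4.35, 4.45 and 7.07 CPM in LC rats, in the same orders. Every HC rat was below every LC rat, also without LC 2 and LC 4, but the gap between HC 16 (49 reads, exact Poisson 95% interval 36.3 to 64.8) and LC 12 (53 reads, 39.7 to 69.3) is far within counting error. Such intervals cover counting error only. The mean was 3.83 ± 0.32 CPM in HC rats and 6.58 ± 2.07 CPM in LC rats (SD over 5 rats each), a log2 fold change of −0.77 (SE 0.21). Without LC 2 and LC 4 the LC mean was 5.29 ± 1.54 CPM (SD, n = 3) and the log2 fold change −0.48 (SE 0.18). The HC rats varied by 8.45% of their mean, where counting alone gives 12.7%, against 31.5% in LC rats, where counting gives 10.3%.

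Dlx5, which acts downstream of Dlx1 and Dlx2 in the mouse, was high in LC 2 and LC 4. Its exon reads were 74, 60, 94, 115 and 60 in HC 9, 10, 11, 15 and 16, against 134, 152, 67, 112 and 165 in LC 2, 4, 12, 13 and 14. In the same orders the levels were 4.08, 4.94, 4.45, 4.18 and 5.22 CPM in HC rats, against 12.9, 10.3, 5.50, 4.70 and 6.83 CPM in LC rats. The groups overlapped through LC 13, which was below HC 10 and HC 16. The mean was 4.58 ± 0.49 CPM in HC rats and 8.05 ± 3.46 CPM in LC rats (SD over 5 rats each), a log2 fold change of −0.81 (SE 0.26). Without LC 2 and LC 4 the LC mean was 5.68 ± 1.07 CPM (SD, n = 3) and the log2 fold change −0.33 (SE 0.16).

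Dlx1, the most abundant of the 4 genes, differed least among the Dlx genes in proportion. It had 602, 386, 665, 791 and 329 exon reads in HC 9, 10, 11, 15 and 16, against 436, 577, 404, 771 and 1010 in LC 2, 4, 12, 13 and 14. The levels were 33.2, 31.8, 31.5, 28.8 and 28.6 CPM in HC rats, against 42.0, 39.1, 33.2, 32.4 and 41.8 CPM in LC rats. LC 13 was below HC 9, LC 12 was level with it, and LC 2, LC 4 and LC 14 were above all HC rats. The mean was 30.8 ± 1.98 CPM in HC rats and 37.7 ± 4.63 CPM in LC rats (SD over 5 rats each), a log2 fold change of −0.29 (SE 0.09). Without LC 2 and LC 4 the LC mean was 35.8 ± 5.22 CPM (SD, n = 3) and the log2 fold change −0.22 (SE 0.09).

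Lhx6 did not share this order of rats. Its exon reads were 108, 86, 119, 146 and 46 in HC 9, 10, 11, 15 and 16, against 30, 87, 68, 126 and 135 in LC 2, 4, 12, 13 and 14. The levels were 5.95, 7.08, 5.64, 5.31 and 4.01 CPM in HC rats, against 2.89, 5.90, 5.58, 5.29 and 5.58 CPM in LC rats. LC 2, which had the highest Dlx5 level of all rats, had the lowest Lhx6 level (30 reads, exact Poisson 95% interval 20.2 to 42.8), and the other LC rats lay within the HC range. The mean was 5.60 ± 1.11 CPM in HC rats and 5.05 ± 1.23 CPM in LC rats (SD over 5 rats each), a log2 fold change of 0.14 (SE 0.20). Without LC 2 and LC 4 the LC mean was 5.49 ± 0.17 CPM (SD, n = 3) and the log2 fold change 0.03 (SE 0.17).

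**Figure D2:**
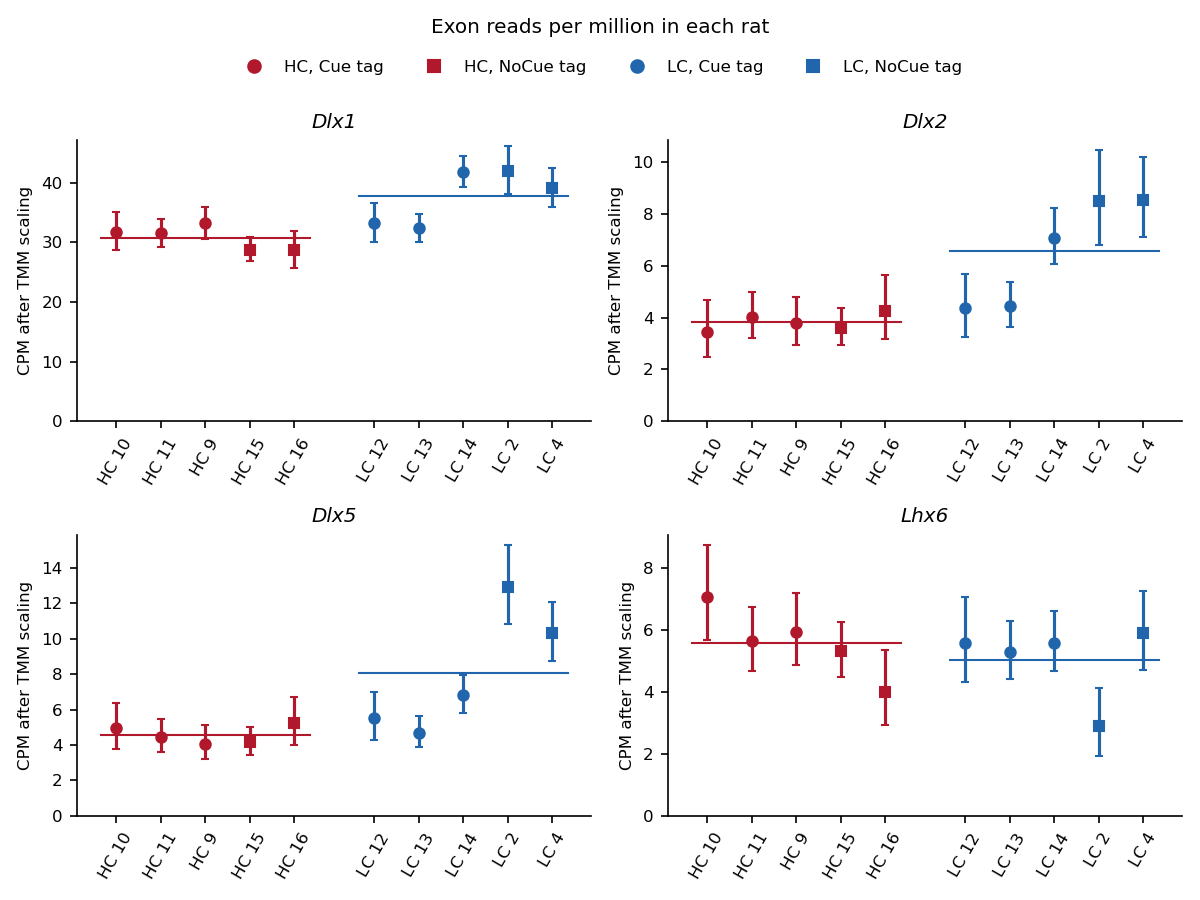
CPM after TMM scaling (y axis) of each gene in each rat (x axis, HC in red on the left, LC in blue on the right, circles for the Cue tag and squares for NoCue). Bars are exact Poisson 95% intervals and horizontal lines are group means. LC 2, LC 4 and LC 14 are the highest rats for the 3 Dlx genes, and LC 2 is the lowest for Lhx6 at 2.89 CPM.

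The unnamed neighbour of Dlx5, AABR07059679.1, is the least covered of these rows. It had 38, 23, 52, 44 and 18 exon reads in HC 9, 10, 11, 15 and 16, against 26, 43, 24, 34 and 32 in LC 2, 4, 12, 13 and 14. The means were 1.92 ± 0.37 CPM in HC rats and 2.03 ± 0.68 CPM in LC rats (SD over 5 rats each), and the log2 fold change was −0.04 (SE 0.26), or 0.32 (SE 0.24) without LC 2 and LC 4. The ranges overlapped, and counting error alone amounts to 18.3% in HC rats and 18.1% in LC rats.

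In the fit across 14135 genes, edgeR called no gene between HC and LC rats at an adjusted p under 0.05 (0.0%), nor did DESeq2, and an unadjusted p under 0.05 was given to 246 genes (1.74%) by edgeR and to 301 by DESeq2. The study scored a gene as different when −log10 of its unadjusted p reached 1.3 and its log2 fold change reached 0.58 in either direction. Of all genes, 0.432% met this criterion on the lower side in HC rats. For the members only the log2 fold change is compared with it, because they were chosen on this contrast. The log2 fold changes of Dlx2 and Dlx5 given above were beyond 0.58 in size, on the lower side in HC rats. They were short of 0.58 in size without LC 2 and LC 4, as given above. By limma on log2(TPM + 0.1) they were also short of it, at −0.50 and −0.49. All HC rats below all LC rats, as for Dlx2, was found in 0.233% of genes. The members were selected on this contrast, so these are descriptions and nothing is read from the shares.

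The choice of rats changed the size of the difference more than its direction. Among the Cue rats, 3 of each phenotype, the log2 fold changes of HC over LC were −0.16 (SE 0.105) for Dlx1, −0.50 (SE 0.22) for Dlx2, −0.35 (SE 0.18) for Dlx5 and 0.17 (SE 0.14) for Lhx6. Among the NoCue rats, HC 15 and 16 against LC 2 and LC 4, they were −0.51 (SE 0.17) for Dlx1, −1.13 (SE 0.26) for Dlx2, −1.32 (SE 0.27) for Dlx5 and 0.07 (SE 0.42) for Lhx6. The 3 Dlx genes thus lay below 0 in every set of rats plotted, with the largest differences in the set that sets HC 15 and 16 against LC 2 and LC 4. Lhx6 lay above 0, but within its SE of 0 in every set except the Cue rats. The sets share rats and the members were chosen on this contrast, so a constant sign is a description.

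**Figure D3:**
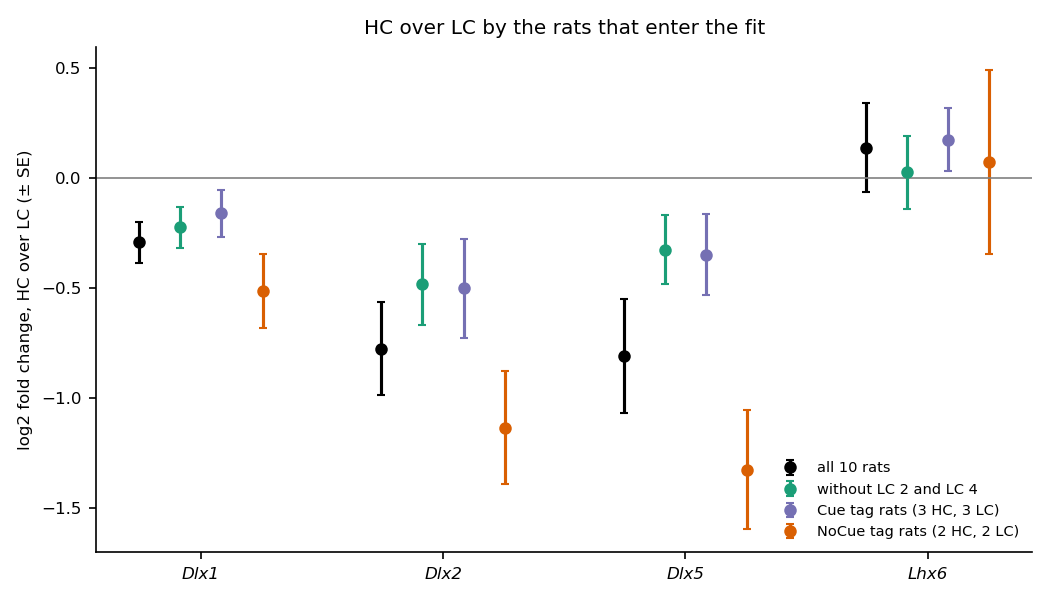
Log2 fold change of HC over LC with its SE (y axis) for each gene (x axis), fitted by edgeR on all 10 rats (black), without LC 2 and LC 4 (green), on the Cue rats (purple) and on the NoCue rats (orange). Dlx5 ranges from −0.33 without LC 2 and LC 4 to −1.32 in the NoCue rats, and Lhx6 stays between 0.03 and 0.17.

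TPM, which divides reads by exon length and by the sum over all genes, puts the genes on a scale on which they can be compared, and it depends on the annotated exon lengths (2757 bases for Dlx1, 999 for Dlx2, 1390 for Dlx5 and 1179 for Lhx6). In TPM, Dlx1 had 27.1, 25.3, 26.3, 23.0 and 21.4 in HC 9, 10, 11, 15 and 16, against 19.0, 28.6, 24.9, 25.3 and 32.4 in LC 2, 4, 12, 13 and 14. Dlx2 had 8.56, 7.58, 9.28, 7.93 and 8.81 TPM in HC rats, against 10.6, 17.2, 9.02, 9.60 and 15.1 TPM in LC rats. On this scale LC 12 was below HC 11 for Dlx2, so that the groups overlapped, and LC 2 was the lowest rat for Dlx1. Dlx5 had 6.60, 7.79, 7.37, 6.62 and 7.75 TPM in HC rats, against 11.6, 14.9, 8.19, 7.29 and 10.5 TPM in LC rats. Lhx6 had 11.4, 13.2, 11.0, 9.91 and 7.0 TPM in HC rats, against 3.06, 10.1, 9.80, 9.66 and 10.1 TPM in LC rats.

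Mitochondrial genes took 52.0% of the TPM total of LC 2, against 17.4% to 25.7% in the other rats, which lowers the TPM of every other gene there. With limma on log2(TPM + 0.1), the median log2 fold change of HC over LC across all genes was 0.226, against 0.005 for the counts. Relative to that median the log2 fold changes were −0.29 for Dlx1, −0.72 for Dlx2, −0.72 for Dlx5 and 0.16 for Lhx6. The genes at the criterion were 88 on this scale, 5 of them lower in HC rats, against 82 by edgeR on counts with 61 lower. With TPM recomputed without mitochondrial genes, a choice made after seeing the data, LC 2 had 39.7 TPM of Dlx1, 22.1 of Dlx2, 24.2 of Dlx5 and 6.39 of Lhx6. Dlx2 then had 9.50 to 11.5 TPM in HC rats, against 11.6 to 23.2 TPM in LC rats, again without overlap.

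The order of the levels in TPM was Dlx1, Dlx2, Lhx6 and Dlx5. Over all 10 rats Dlx1 averaged 25.3 ± 3.72 TPM, Dlx2 10.4 ± 3.21 TPM, Lhx6 9.52 ± 2.74 TPM and Dlx5 8.86 ± 2.68 TPM (SD). Dlx1 was above Dlx2 in 10 of 10 rats, by 1.32 ± 0.33 on the log2(TPM + 0.1) scale (SD; exact sign-flip permutation test, two-sided, p = 0.00195, the smallest that 10 rats allow, adjusted p = 0.00586 over 3 neighbouring pairs). Dlx2 and Lhx6 differed by 0.16 ± 0.73, with Dlx2 higher in 4 of 10 rats, and Lhx6 and Dlx5 by 0.07 ± 0.81, with Lhx6 higher in 6 of 10 rats (SD; adjusted p = 0.82 for both, same exact test). Neither of these 2 neighbouring pairs therefore has an order beyond the spread between rats. Dlx2 and Dlx5 were not tested against each other. Dlx2 was above Dlx5 in TPM in every rat except HC 10 (7.58 against 7.79) and LC 2 (10.6 against 11.6). Without LC 2 and LC 4 the mean of Dlx2 over Lhx6 turned to −0.12, and Lhx6 was above Dlx5 by 0.39 (adjusted p = 0.047, same exact test).

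**Figure D4:**
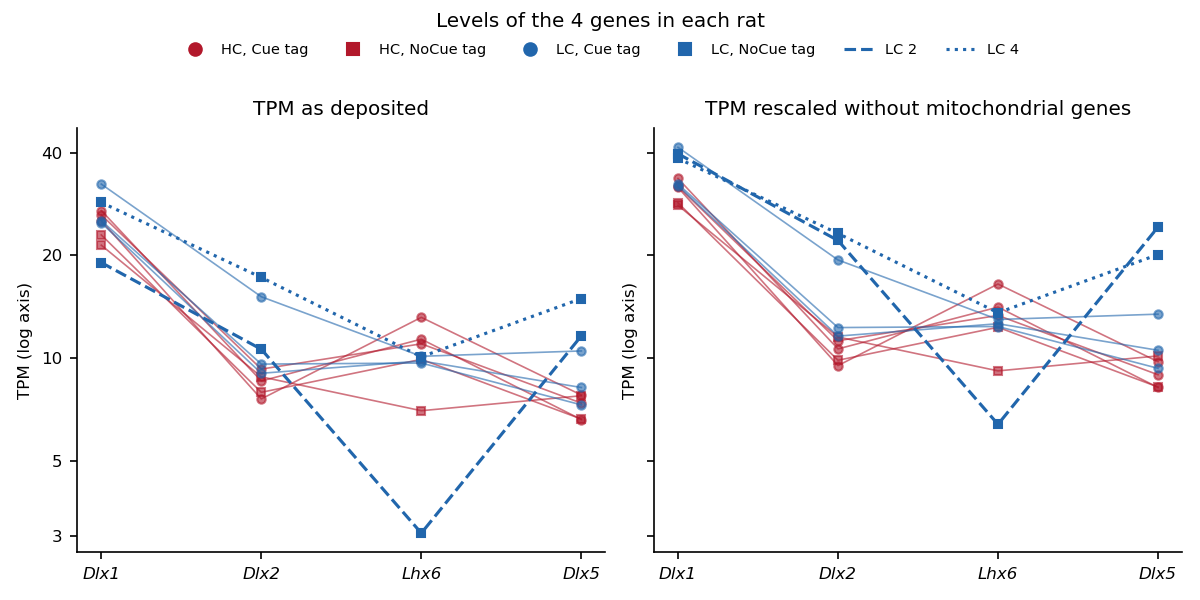
TPM (y axis, log scale) of the 4 genes (x axis) in each rat, with 1 line per rat (HC in red, LC in blue, LC 2 dashed, LC 4 dotted, circles for the Cue tag and squares for NoCue). The left panel has the deposited TPM and the right panel TPM recomputed without mitochondrial genes. LC 2 drops to 3.06 TPM at Lhx6 on the left and to 6.39 on the right.

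Set against the GABA genes of the same library, the means of Dlx2 and Dlx5 were lower in HC rats, by less without LC 2 and LC 4. Gad1 and Gad2, which make GABA, and Slc32a1, which loads it into vesicles, summed to 260 to 301 TPM in HC rats, against 176 TPM in LC 2, 319 in LC 4 and 248 to 305 in the remaining LC rats. The mitochondrial genes of LC 2 lower its sum on this scale. In CPM, LC 2 had 208 for Gad1 (186 to 226 in HC rats), 363 for Gad2 (195 to 244) and 51.8 for Slc32a1 (77.6 to 86.7). As a percent of that sum, Dlx2 was 2.97 ± 0.30% in HC rats and 4.79 ± 1.48% in LC rats, and Dlx5 was 2.54 ± 0.15% in HC rats and 4.17 ± 1.65% in LC rats (SD over 5 rats each). Dlx1 was 8.67 ± 1.05% in HC rats and 10.0 ± 1.95% in LC rats, with overlap, and Lhx6 was 3.68 ± 0.78% in HC rats and 3.14 ± 0.87% in LC rats (SD over 5 rats each). The LC means without LC 2 and LC 4 were 4.17 ± 1.68% for Dlx2, 3.19 ± 0.95% for Dlx5, 10.1 ± 2.59% for Dlx1 and 3.59 ± 0.46% for Lhx6 (SD, n = 3). LC 12 and LC 13 were within the HC range for Dlx2 on this measure, at 3.24% and 3.15%, and LC 14 was the highest at 6.11%.

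Reads in introns differed between the genes. Introns held 36.1% to 46.9% of the reads of Lhx6 in HC rats and 27.5% to 50.0% in LC rats, against 13.7% to 18.1% for Dlx1 in HC rats and 13.5% to 22.1% in LC rats. Dlx2 had 2.00% to 6.67% in HC rats and 1.12% to 9.52% in LC rats. For Dlx5 the intron share was 13.9 ± 2.57% in HC rats and 8.52 ± 2.89% in LC rats (SD over 5 rats each), with LC 2 lowest at 3.6%, from 5 intron reads among 139, and with HC 15 (10.2%) below LC 13 (10.4%). The LC mean for Dlx5 was 9.65 ± 1.24% without LC 2 and LC 4 (SD, n = 3). Antisense RNAs are known from the Dlx1 locus and the Dlx5 and Dlx6 locus of the mouse. Whether strand was used when reads were counted is not stated in the methods or labels. Thus reads from such RNAs and from the genes cannot be told apart.

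Whether the tag went with the members was tested among the HC rats, which the differences of LC 2 and LC 4 do not enter except through the shared spread. Dlx1 was at 31.5 to 33.2 CPM in the Cue HC rats, against 28.6 and 28.8 CPM in the NoCue HC rats. Lhx6 had 5.64 to 7.08 CPM in the Cue HC rats, against 4.01 and 5.31 CPM in the NoCue HC rats. Every Cue HC rat was thus above both NoCue HC rats for these 2 members, as for 11.5% of all genes. The log2 difference of Cue over NoCue was 0.16 (SE 0.12) for Dlx1, −0.05 (SE 0.25) for Dlx2, −0.06 (SE 0.22) for Dlx5 and 0.40 (SE 0.27) for Lhx6 (edgeR, adjusted p = 0.9998 for each). No member had an unadjusted p under 0.05 by edgeR or DESeq2, which 2.94% of all genes had by edgeR. At an adjusted p under 0.05 edgeR called none of the 14135 genes, with 415 at an unadjusted p under 0.05, and DESeq2 called 20. The edgeR count at an unadjusted p under 0.05 moved with the LC libraries, and was 936 without LC 2, 935 without LC 4 and 940 (6.5%) without both. Without both, the log2 difference was 0.16 (SE 0.11) for Dlx1, −0.05 (SE 0.25) for Dlx2, −0.06 (SE 0.21) for Dlx5 and 0.39 (SE 0.18) for Lhx6 (edgeR, lowest adjusted p = 0.757), and again no member had an unadjusted p under 0.05.

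Among LC rats the same contrast is that of LC 12, 13 and 14 with LC 2 and LC 4, and it gave −0.18 (SE 0.12) for Dlx1, −0.67 (SE 0.23) for Dlx2, −1.02 (SE 0.21) for Dlx5 and 0.30 (SE 0.28) for Lhx6 on the log2 scale, as a description. The difference of the tag effect between the phenotypes, HC minus LC, was 0.97 (SE 0.30) for Dlx5 (edgeR, unadjusted p = 0.01, adjusted p = 0.37). It was 0.34 (SE 0.17, adjusted p = 0.38) for Dlx1, 0.63 (SE 0.34, adjusted p = 0.40) for Dlx2 and 0.10 (SE 0.39, adjusted p = 0.91) for Lhx6 (edgeR). AABR07059679.1 had a tag difference of 0.45 (SE 0.27) in HC rats and −0.81 (SE 0.27) in LC rats, which differ by 1.26 (SE 0.38, edgeR, adjusted p = 0.37). This interaction rests on LC 2 and LC 4, whose values were known when the members were chosen, and it is not independent of that choice. An unadjusted p under 0.05 was given to 13.3% of all genes, and Dlx5 is the member among them. At an adjusted p under 0.05 edgeR called 0 genes (1885 unadjusted) and DESeq2 9. Without LC 4, with LC 2 as the sole NoCue LC rat and assumed to vary like the others, edgeR called 4977 genes, and Dlx5 was then among them (1.13, SE 0.32, adjusted p = 0.024). Without LC 2 it called 3 genes.

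Across rats the 3 Dlx genes were high in the same animals. LC 14, LC 2 and LC 4 had the 3 highest levels of each Dlx gene, and they stood apart from the other 7 rats in the plot of pairs of genes. Over all 10 rats, with that separation in them, Pearson's r of log2 CPM was 0.895 for Dlx1 with Dlx2, 0.821 for Dlx1 with Dlx5 and 0.936 for Dlx2 with Dlx5 (permutation tests, two-sided, unadjusted p of 0.004, 0.00477 and 0.0003, adjusted p of 0.00954, 0.00954 and 0.0018 over 6 pairs). Spearman's rho was 0.721, 0.673 and 0.794 (unadjusted p of 0.0242, 0.0392 and 0.00894, adjusted p of 0.0727, 0.0784 and 0.0536, same tests). Since the members were chosen with HC and LC values known, these are not independent of that choice. The r values without LC 2 and LC 4 were 0.833, 0.7 and 0.842, with an adjusted p of 0.128, 0.134 and 0.0949 over 6 pairs (permutation tests, two-sided), and rho was 0.524, 0.381 and 0.619 (adjusted p of 0.468 for each). Without LC 14 and LC 2, the rats farthest from the Dlx1 median, r was 0.8 for Dlx1 with Dlx2 and 0.767 for Dlx1 with Dlx5. On log2(TPM + 0.1) over 10 rats, r was 0.509, 0.141 and 0.867 (adjusted p of 0.274, 0.736 and 0.0235, same tests). Among the 7 rats left without LC 14, LC 2 and LC 4, a set chosen after seeing the data, Pearson's r of log2 CPM was 0.176 for Dlx1 with Dlx2, 0.044 for Dlx1 with Dlx5 and 0.488 for Dlx2 with Dlx5 (Spearman's rho 0.286, 0.071 and 0.429), and none passed (exact permutation tests, two-sided, unadjusted p for r of 0.67, 0.92 and 0.257, and for rho of 0.556, 0.906 and 0.354, with the lowest adjusted p over 6 pairs at 0.446 for r and 0.667 for rho). Taken as deviations from the mean of each phenotype over 10 rats, a second measure chosen after seeing the data, r was 0.762, 0.652 and 0.884 for the same pairs, with an adjusted p of 0.266, 0.266 and 0.256 over 6 pairs (exact permutation within phenotype, two-sided). Lhx6 had an r of 0.618 with Dlx1, −0.606 with Dlx2 and −0.234 with Dlx5 among the 7 rats (rho 0.429, −0.643 and −0.286), none of which passed (exact permutation tests, adjusted p of 0.446, 0.446 and 0.805 for r and 0.667 for each rho). Leaving out the rats that are highest for all 3 Dlx genes narrows the range of each, to 3.46 to 4.45 CPM for Dlx2, where counting error is about as wide, so the 7 rats do not show whether the genes go together at lower levels.

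**Figure D5:**
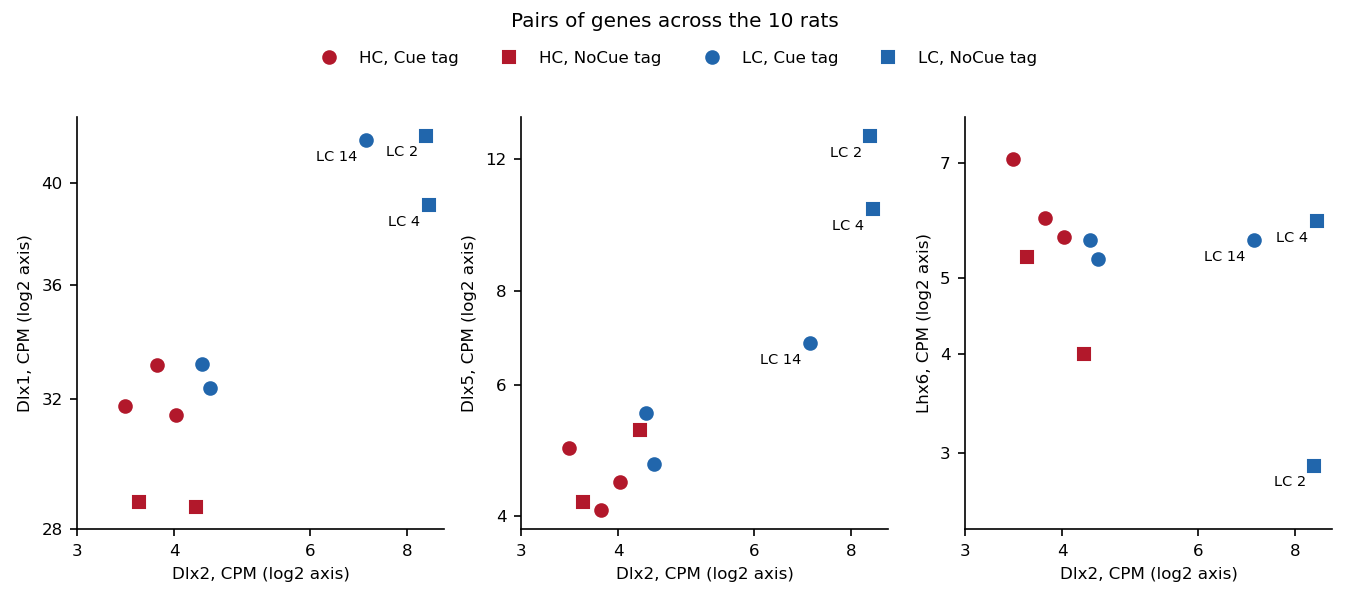
CPM of Dlx2 (x axis, log2 scale) against CPM of Dlx1, Dlx5 and Lhx6 (y axes, log2 scale), 1 point per rat (HC in red, LC in blue, circles for the Cue tag and squares for NoCue). LC 14, LC 2 and LC 4 lie apart at 7.07 to 8.54 CPM of Dlx2, and the other 7 rats lie between 3.46 and 4.45 CPM.

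The genes whose log2 CPM was most like the mean of Dlx1, Dlx2 and Dlx5, among those averaging at least 50 exon reads, are given as a description. Over 10 rats they were Pbx3 (r = 0.97), Snrpd3 (0.963), Hmgn2 (0.96), Filip1 (0.946) and Rab3b (0.94). Pbx3, a TALE homeodomain factor of a family that binds DNA together with other homeodomain proteins, had 5.97 to 7.31 CPM in HC rats, against 14.3 CPM in LC 2, 14.6 in LC 4 and 7.06 to 9.35 CPM in the remaining LC rats. Over the 8 rats without LC 2 and LC 4 they included Papss2 (0.932), Nudt16 (0.921), Pbx3 (0.909) and Rpf2 (0.892). Lhx6 itself was far from the Dlx genes, at place 8524 of 12200 over 10 rats (r = −0.488) and at 6794 over 8 (r = −0.052). The genes most like Lhx6 over 10 rats were Adcy3 (0.967), Rhot2 (0.966) and Ccdc71l (0.965), each with its lowest level in LC 2. Within a rat all genes share the same library, and the values over 10 rats also carry the features of LC 2 and LC 4.

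Of 48 listed genes 46 had a row and 38 were tested. A lower mean in HC rats was found in 28 of these 38, and in 6912 of all 14135 genes. The median log2 fold change of the 38 was −0.04 against 0.005 over all genes (−0.03 against 0.001 without LC 2 and LC 4). None of the 38 had an unadjusted p under 0.05 in HC against LC by edgeR or by DESeq2. Without LC 2 and LC 4, 2 of the 38 had one by edgeR, as had 224 of all 14456 genes. The 2 were Sp8, an interneuron and olfactory bulb factor (−0.67, SE 0.29), and Robo1, a guidance receptor (0.19, SE 0.06), both with an adjusted p of 0.9998. Of the other Dlx genes, Dlx3 had no read in any rat and Dlx4 at most 0.11 CPM in HC rats and 0.083 CPM in LC rats.

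Among the 6 ventral progenitor factors, Gsx1, Gsx2, Nkx2-1 and Otx2 had too few reads to be tested, with Nkx2-1, which induces Lhx6, at most at 0.47 CPM in HC rats and 0.96 CPM in LC rats. Olig2 was tested, at 25.8 ± 3.86 CPM in HC rats and 27.6 ± 1.98 CPM in LC rats (SD over 5 rats each). Of the interneuron transcription factors 12 of 14 were tested and 7 had a lower mean in HC rats (median −0.06). Sp9, a zinc finger factor of ventral forebrain progenitors, had a log2 fold change of −0.43 (SE 0.23), Satb1, which acts below Lhx6 in the mouse, −0.11 (SE 0.13), and Sox6, likewise below Lhx6, −0.03 (SE 0.14). These were, without LC 2 and LC 4, −0.40 (SE 0.21), −0.05 (SE 0.10) and −0.09 (SE 0.12), in the same order. Lhx8 had no read in any HC rat and at most 0.75 CPM in LC rats.

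Among the GABA genes, the log2 fold change of HC over LC was −0.03 (SE 0.08) for Gad1, −0.25 (SE 0.15) for Gad2 and −0.01 (SE 0.16) for Slc32a1. Gad2 had 195 to 244 CPM in HC rats, against 363 CPM in LC 2, 288 in LC 4 and 193 CPM in the lowest LC rat. On the 8 rats without LC 2 and LC 4 the log2 fold changes were 0.02 (SE 0.07) for Gad1, −0.01 (SE 0.09) for Gad2 and −0.07 (SE 0.10) for Slc32a1. Of the 14 interneuron class markers 12 were tested and 9 had a lower mean in HC rats, with a median of −0.03. Sst, the peptide of an Lhx6-dependent class, had 112 ± 8.41 CPM in HC rats and 143 ± 59.5 CPM in LC rats (SD over 5 rats each), with LC 2 at 248 CPM. Pvalb, of the other such class, had 33.9 ± 5.38 CPM in HC rats and 38.0 ± 13.9 CPM in LC rats, and Vip, of a class from the caudal eminence, had 33.4 ± 5.26 CPM in HC rats and 34.0 ± 6.02 CPM in LC rats (SD over 5 rats each). The LC means without LC 2 and LC 4 were 119 ± 9.46 CPM for Sst, 36.9 ± 15.0 CPM for Pvalb and 36.8 ± 6.55 CPM for Vip (SD, n = 3). Npy is listed with no read in any rat. Of the 8 migration and signalling genes, all tested, 7 had a lower mean in HC rats (median −0.08), among them Erbb4, the neuregulin receptor of interneurons (−0.09, SE 0.13), and Cxcr4 (−0.24, SE 0.35), while Nrp1 was at 0.16 (SE 0.09). The median of these 8 genes without LC 2 and LC 4 was 0.10, with Erbb4 at −0.004 (SE 0.11), Cxcr4 at −0.03 (SE 0.37) and Nrp1 at 0.11 (SE 0.09).

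Of the 38 tested pathway genes, 2 had an unadjusted p under 0.05 between Cue and NoCue HC rats in the edgeR fit, against 2.94% of all genes, namely Olig2 (0.31, SE 0.13) and Nrp1 (0.24, SE 0.10), both higher in Cue rats with an adjusted p of 0.9998. They were 3 without LC 2 and LC 4, with Cck, a peptide of other interneurons and of pyramidal cells, at −0.18 (SE 0.07), against 6.5% of all genes (edgeR). Markers of other cells moved with the same contrast. The striatal markers Drd1 (0.89, SE 0.37), Rgs9 (0.98, SE 0.41) and Foxp2 (0.91, SE 0.33) and the myelin gene Mobp (0.60, SE 0.22) were higher in the Cue HC rats at an unadjusted p under 0.05 by edgeR.

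In HC against LC, 14 of 14 tested striatal markers had a lower mean in HC rats, as had 6912 of all 14135 genes. The median log2 fold change of these markers was −0.50, or 0.04 without LC 2 and LC 4. Adora2a (−1.33, SE 0.57), Penk (−0.71, SE 0.28) and Syndig1l (−1.35, SE 0.60) had an unadjusted p under 0.05 by edgeR, and an adjusted p of 0.89. Of the neuroblast and progenitor markers, 7 of 8 tested had a lower mean in HC rats (median −0.23, or −0.09 without LC 2 and LC 4), with Top2a, a gene of dividing cells, at −1.44 (SE 0.54). Among 4 tested markers of choroid plexus and ependyma 3 were lower in HC rats, with Ccdc153, of ciliated cells, at −0.86 (SE 0.39). The medians of the cortical excitatory, astrocyte, oligodendrocyte, microglia and endothelial lists lay between −0.04 and 0.08. The part of striatal, progenitor or other cells in the Dlx levels of LC 2 and LC 4 was not tested. The striatal markers of LC 14 summed to 456 TPM, against 394 to 446 TPM in HC rats. Its neuroblast markers summed to 998 TPM, against 970 to 1042 TPM. Its Dlx1, Dlx2 and Dlx5 levels were above all HC rats. Sums of markers can hide single genes. Igfbpl1 reached 2.896 CPM in an LC rat other than LC 2 and LC 4, against at most 0.331 CPM in HC rats. Sox11 and Egfr likewise reached 13.775 and 12.071 CPM, against at most 8.565 and 11.97 CPM. For Dcx, Cd24, Mki67, Top2a, Nes and Stmn1 the highest LC rat was LC 2. The part of striatal, progenitor or other cells in the Dlx levels of LC 14 was not tested either.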

How the data were processed

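Total RNA libraries (Kapa Stranded kit, single-end reads of 50 bases) were trimmed and mapped by the authors to Rnor_6.0 (release 97) in CLC Genomics Workbench v21. The deposited table of each rat gives counts of exon, intron and gene reads, and TPM that the authors computed from exon reads and exon length. The deposited HC against LC comparison (fold changes and p-values of a generalized linear model) was not used. Exon read counts were filtered by filterByExpr, scaled by TMM and fitted by edgeR 4.0.16 (quasi-likelihood test, Benjamini-Hochberg over 14135 genes) in R 4.3.3. An SE is the log2 fold change over the square root of F. The 4-cell model of phenotype and tag gave the tag contrasts and their interaction. DESeq2 1.42.0 and limma 3.58.1 (pseudocount 0.1 or 1 TPM) served as alternatives, beside other scalings, filters and read types, each rat left out and LC 2 and LC 4 left out. Fits were tested on simulated counts. The order of levels was tested by exact sign flips over rats. Correlations were tested by 100000 random permutations, and by exact permutation among 7 rats and within phenotypes. Far single values were marked by the gap over the range. The members, gene lists and tests were chosen with earlier results of these data known. Since Dlx6 had no row, 6 pairs of members, 3 neighbouring levels and the mean of 3 Dlx genes were used in place of the 10, 4 and 4 planned. Named genes were the members, pathway genes with an unadjusted p under 0.05, the first 3 of each list, the 5 genes most like the Dlx mean over 10 and over 8 rats and the 3 most like Lhx6; other listed genes were named after their values were seen. Of 107 listed genes 6 had no row. Some genes that the rule names are not reported here.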

Additional observations from a re-analysis of the deposited data

Results flagged for a closer look

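Lhx6 in LC 2 was far below the other LC rats, at 2.89 CPM against 5.29 to 5.90 CPM, a gap of 0.798 of the LC range, and at 3.06 TPM as deposited against 9.66 to 10.1 TPM, a gap of 0.936 of that range. A gap over 0.71 marks a far value among 5 rats. Among 24 groups of values looked at in this way, chance marks about 1 in 20. That rate holds for rats not singled out beforehand, and LC 2 was known to stand apart when the members were chosen. The mark is thus a description. Both values rest on the same 30 exon reads, in the library with 28.41% mitochondrial reads, which lower its deposited TPM.

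The Cue over NoCue difference of Dlx5 differed between HC and LC rats by 0.97 on the log2 scale (edgeR, unadjusted p = 0.01, adjusted p = 0.37), being −0.06 in HC rats and −1.02 in LC rats. An unadjusted p under 0.05 was given to 13.3% of all genes in this contrast. The difference rests on LC 2 and LC 4, whose values were known when the members were chosen, and is a description.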

How the results depend on the processing

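Of 410 recomputed values 355 were marked as the same as in the main setting. For the tested levels and correlations this means the same direction and the same side of the threshold. Counts and log2 fold changes could bear this mark though the value changed. Examples are 104 genes at the study's criterion by total gene reads against 82, and Lhx6 at 0.005 without LC 2 against 0.139. The 82 genes at the study's criterion between HC and LC rats became 288 with no filter, 45 with a mean of at least 50 reads, 41 by limma on log2(TPM + 1) and 493 in the NoCue rats alone, and 68 to 183 with 1 rat left out, with 152 without LC 12, 183 without LC 13 and 166 without LC 14. No gene passed an adjusted p of 0.05 there under any alternative run. Between Cue and NoCue HC rats the count of 0 became 20 by DESeq2 and 2 without LC 2 and LC 4, and 0 to 2 with 1 rat left out (2 without LC 2). For the interaction it became 9 by DESeq2, and 0 to 4977 with 1 rat left out (4977 without LC 4, 3 without LC 2). With 1 rat left out the log2 fold change of HC over LC ranged from −0.34 to −0.25 for Dlx1, −0.90 to −0.66 for Dlx2, −0.95 to −0.58 for Dlx5 and 0.005 to 0.231 for Lhx6.

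Several values changed sign. The mean log2 TPM of Dlx2 over Lhx6 was −0.123 without LC 2 and LC 4 and −0.024 to 0.259 with 1 rat left out, and that of Lhx6 over Dlx5 −0.01 to 0.286. The Cue effect in HC rats by limma was 0.015 (pseudocount 0.1) and 0.014 (pseudocount 1) for Dlx2, and 0.015 and 0.013 for Dlx5. With 1 rat left out it was −0.176 to 0.067 for Dlx2 and −0.223 to 0.097 for Dlx5. The interaction of Lhx6 was −0.021 with library size alone, −0.011 with gene reads, −0.314 and −0.24 by limma (pseudocounts 0.1 and 1), and −0.532 to 0.488 with 1 rat left out. Pearson's r of Dlx1 with Lhx6 was −0.263 over 10 rats, 0.337 without LC 2 and LC 4, 0.618 also without LC 14 and 0.734 on log2(TPM + 0.1), with an adjusted p of 0.0415 over 6 pairs (permutation test). The cause was not tested. No paired analysis was possible because HC and LC rats share no numbers. The main limits are 5 rats a group, 18 to 171 exon reads per rat for all rows but Dlx1, and 2 libraries that stand apart and carry the NoCue tag.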
